A study of Mus musculus with 6 samples.

Results

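The genes described here are 10 immediate early genes of the AP-1, EGR and related families, Fos, Fosb, Fosl2, Jun, Junb, Jund, Atf3, Egr1, Nr4a1 and Ier2, followed through the cell classes of a single-cell RNA sequencing (scRNA-seq) study of adult mouse cerebral cortex. They were chosen by name, as 10 of the 23494 genes listed in at least 1 of 3 deposited count matrices, and all 10 were listed in each matrix. The study sorted live tdT (Ai14)+/DAPI- cells from 2 lineage tracing lines, the NG2 line (NG2-Cre-ERT2/Ai14-flx) and the Tbx18 line (Tbx18-CreERT2/Ai14-flx), to follow pericytes after brain injury. Each line gave 1 library from cortex without injury (naive), 1 after an intracerebral injection of saline (physical injury) and 1 after an injection of ET-1/L-NAME, which constricts vessels (ischemic injury). The mice were 3 to 4 months old, every group carried an inducible Cre and the Ai14 reporter and received tamoxifen, given 7 days before injury in the injured groups, and injured cortex was collected 3 days after injury.

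Each library was made from pooled animals, and naive tissue came from both hemispheres while injured tissue was dissected from the damaged cortex. With 1 library per group the injury, the animals, the dissection and the preparation cannot be told apart, no value has a replicate check, and no test between conditions was possible. NG2-driven Cre also marks oligodendrocyte precursor cells and Tbx18-driven Cre marks smooth muscle cells as well as pericytes, so the reporter alone did not make a cell a pericyte. All tissue passed through warm papain digestion, a medium with serum and growth factors, and cell sorting before lysis. No library made without these steps was analysed here, so the levels below are those of dissociated, sorted cells.

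Immediate early genes are transcribed within minutes of a stimulus by transcription factors that the cell already holds, and their short-lived mRNAs disappear soon after the stimulus ends. FOS proteins pair with JUN proteins to form AP-1, ATF3 can pair with JUN, and EGR1, a zinc finger factor, and NR4A1, an orphan nuclear receptor, act beside them. In vessels and glia they respond to growth factors, calcium, cytokines and injury, and they are also known to respond to tissue dissociation.

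The promoters of 4 members are shown because the members moved together in several comparisons, and because cyclic AMP response element (CRE) half-sites are a known feature of such promoters. From the RefSeq (GRCm38.p6) promoter table, 8 of the 10 members were searched, with 1 start each, and no other start was searched. Egr1 and Ier2 were not searched. For Atf3, Nr4a1 and Fosl2 the bases searched lay inside the annotated gene. For Jund they ended at 70697738, where the annotated gene starts at 70698949. In the 250 bases before the start, the CRE half-site TGACG was present on either strand in 5 of these 8 (Fos, Fosb, Junb, Atf3 and Nr4a1), against 17.8% of all 32851 promoters in windows of the same length. The letters TGACNTCA were present in 1, Jun, against 7.49% of all promoters. The full CRE TGACGTCA, the AP-1 site TGANTCA and the CArG box, the site of serum response factor, were in none of the 8, against 1.55%, 6.75% and 1.47% of all promoters. TGACG overlaps TGACGTCA, both strands were searched, and a match describes letters only. Bases outside these windows were not searched, so an absent match applies to the 250 bases alone. The sequences run 5′ to 3′ on the strand of the gene with these matches in capitals, for Fos (chr12:85473640-85473889, plus strand), Jun (chr4:95052223-95052472, minus strand), Atf3 (chr1:191183334-191183583, minus strand) and Nr4a1 (chr15:101266596-101266845, plus strand).
Fos: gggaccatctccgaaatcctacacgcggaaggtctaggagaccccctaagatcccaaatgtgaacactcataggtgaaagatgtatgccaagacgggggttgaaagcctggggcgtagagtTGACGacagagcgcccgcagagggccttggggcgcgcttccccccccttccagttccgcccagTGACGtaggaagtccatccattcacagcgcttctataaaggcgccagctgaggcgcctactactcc
Jun: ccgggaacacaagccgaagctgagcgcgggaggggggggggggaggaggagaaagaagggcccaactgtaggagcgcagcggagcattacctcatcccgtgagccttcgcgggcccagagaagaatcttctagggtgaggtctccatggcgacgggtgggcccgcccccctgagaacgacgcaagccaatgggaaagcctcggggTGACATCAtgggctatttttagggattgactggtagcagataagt
Atf3: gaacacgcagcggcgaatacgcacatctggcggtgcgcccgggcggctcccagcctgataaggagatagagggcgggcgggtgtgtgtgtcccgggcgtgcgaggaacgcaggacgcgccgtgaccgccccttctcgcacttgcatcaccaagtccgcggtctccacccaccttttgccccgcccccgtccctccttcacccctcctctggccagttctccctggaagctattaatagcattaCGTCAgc
Nr4a1: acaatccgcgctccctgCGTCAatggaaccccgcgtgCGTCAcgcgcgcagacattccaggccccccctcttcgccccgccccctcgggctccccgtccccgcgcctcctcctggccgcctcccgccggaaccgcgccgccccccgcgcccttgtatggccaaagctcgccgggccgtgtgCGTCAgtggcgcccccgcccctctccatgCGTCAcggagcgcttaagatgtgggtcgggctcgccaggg
Nr4a1 held 4 half-sites, Fos 2 and Atf3 1, and the match in Jun, TGACATCA, lay 38 to 45 bases before the start.

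The libraries held 4306, 2563 and 3586 cells for the NG2 line (naive, physical, ischemic) and 686, 3845 and 2047 for the Tbx18 line, with median depths of 2806 to 9232 unique molecular identifiers (UMIs, 1 per captured mRNA molecule) per cell. The 10 genes together gave 2.10%, 1.10% and 0.812% of all UMIs in the NG2 libraries and 2.81%, 2.40% and 2.21% in the Tbx18 libraries. Any 2 libraries shared 0 to 5 cell barcodes. Levels are counts per 1000000 UMIs (CPM), summed over the cells of a class in 1 library, and ratios are the log2 of (CPM + 1) over (CPM + 1), each with a 95% interval that covers counting error only. Molecules were counted at their 3′ end, so levels were not divided by gene length. A gene was called when it differed at least 2-fold, among genes with at least 20 CPM in the higher library. In the text, 3 values in a row are given in the order naive, physical injury, ischemic injury unless stated.

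Cell classes are the deposited clusters, checked against marker lists. Clusters 0, 1 and 2 of the NG2 table were pooled as NG2 pericytes (3243, 1106 and 1085 cells), since Jun is one of the markers by which the study described a pericyte cluster and levels compared between clusters are descriptions. Pericyte markers summed to 32140.0, 31248 and 30391 CPM in the pooled class, with 9 of 9 detected in each library. Markers of other cells were low there, with smooth muscle markers at 655, 626 and 621 CPM, endothelial markers at 160.2, 217 and 224 CPM, microglia markers at 97.7, 319.7 and 239 CPM and mature oligodendrocyte markers at 233, 155 and 477 CPM. Cluster 2 of the Tbx18 table was used as Tbx18 pericytes (226, 433 and 86 cells).

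The 10 genes ranged widely between NG2 classes. Fos, the founding FOS gene, ranged 10.8-fold over the 22 combinations of class and library, from 988 CPM in radial glial progenitor-like cells (RGPs) after ischemic injury to 10719 CPM in naive mesenchymal-like cells. Atf3, a stress-induced factor, ranged from 3.52 CPM in naive oligodendrocyte precursor cells (OPCs) to 3193 CPM in naive smooth muscle cells. Fosl2, which encodes FRA2, stood at 2.19, 2.43 and 6.04 CPM in pericytes and at 120.1, 169.7 and 179.5 CPM in smooth muscle cells. Mature oligodendrocytes, OPCs and RGPs held the low end of most genes, as the plot of levels by NG2 class shows.

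**Figure D1:**
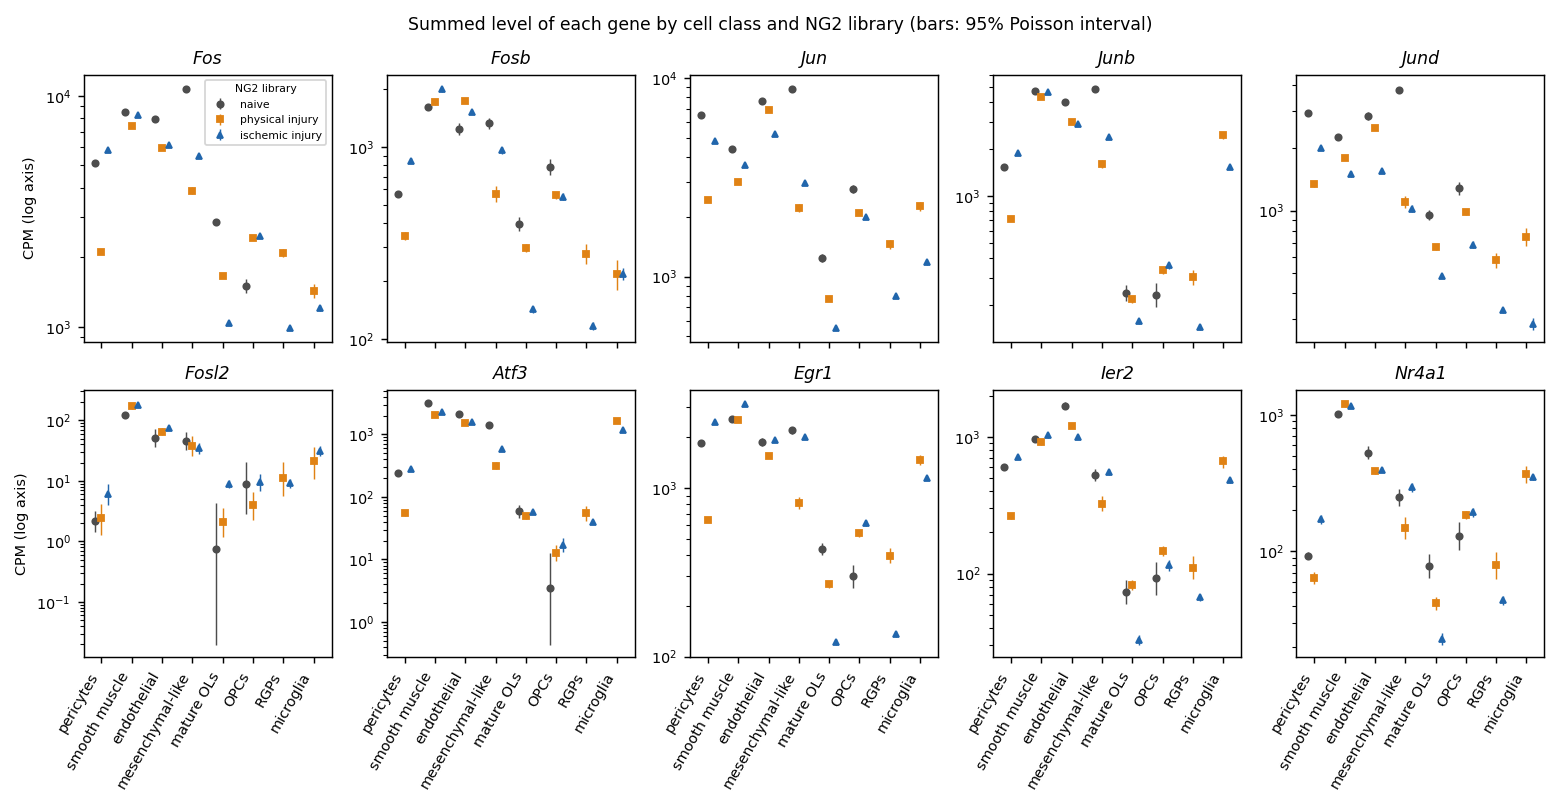
Summed level of each gene (CPM, log axis) in 8 NG2 cell classes, with naive (circles), physical injury (squares) and ischemic injury (triangles) libraries and 95% Poisson intervals. In pericytes the physical injury library lay lowest for 9 of the 10 genes, with Fos at 5125, 2118 and 5853 CPM in the order naive, physical injury, ischemic injury.

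The mix of members also differed between classes, as a description of molecule counts within a library. Junb stood at 0.238 of Jun in naive NG2 pericytes, at 1.08 in naive smooth muscle cells and at 0.0838 in naive OPCs. Microglia (36 and 164 cells after physical and ischemic injury) carried Atf3 at 1.12 and 0.991 of Fos, whereas naive OPCs carried it at 0.00234 of Fos. Nr4a1 stood at 0.0505 of Egr1 in naive pericytes and at 0.397 in naive smooth muscle cells.

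The first comparison asked how these genes stood in NG2 pericytes after injury. After physical injury 7 of the 10 members were at least 2-fold lower than in the naive library, namely Fos, Jun, Junb, Jund, Atf3, Egr1 and Ier2, and none was at least 2-fold higher. Of 7250 genes tested, 21 (0.29%) were at least 2-fold lower, the 7 members among them, and 0.166% were at least 2-fold higher. The median log2 ratio of the 10 members was -1.16 (-1.21 to -1.10), and that of all genes tested was -0.02. Brackets beside a median of the members hold the medians of their lower and upper bounds. They are not an interval of the median and do not show the spread between members. After ischemic injury no member was called against naive, where 0.5% of 7201 genes were at least 2-fold higher and 0.0694% lower.

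Among FOS family members, Fos stood at 5125, 2118 and 5853 CPM. The physical injury library was 2.42-fold lower than naive (log2 ratio -1.27, -1.30 to -1.25), and the ischemic library had a log2 ratio of 0.19 to naive. Fosb, whose product also pairs with JUN proteins, stood at 567, 344 and 846 CPM. Its log2 ratios to naive were -0.72 (-0.79 to -0.65) after physical and 0.58 (0.52 to 0.63) after ischemic injury, both short of 2-fold. Fosl2, below 20 CPM in all 3 libraries, entered no call.

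Among JUN family members, Jun stood at 6500.1, 2442 and 4838 CPM. It was lowest after physical injury, 2.66-fold below naive, and the ischemic library lay between the other two. Junb, often induced together with Fos, stood at 1545, 716 and 1901 CPM, with a log2 ratio of -1.11 (-1.16 to -1.06) after physical injury. Jund, the most constitutive of the JUN genes, stood at 2937, 1336 and 2010.2 CPM, with log2 ratios of -1.14 (-1.17 to -1.10) and -0.55 (-0.58 to -0.51). In the pooled class Jun and Jund were the 2 members whose ischemic level lay below naive.

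Atf3 had the largest ratio of the 10 after physical injury, at 245, 55.4 and 280.2 CPM. It was 4.35-fold lower after physical injury than in naive cells (log2 ratio -2.12, -2.29 to -1.95). Egr1 stood at 1843, 646 and 2457 CPM, with log2 ratios of -1.51 (-1.56 to -1.46) and 0.41 (0.38 to 0.45). Ier2, which encodes a nuclear protein of the same early wave, stood at 599.7, 265 and 719.6 CPM. Nr4a1 stood at 93.0, 63.8 and 172 CPM, and its log2 ratios were -0.54 (-0.71 to -0.36) and 0.88 (0.75 to 1.01). In the pooled class the physical injury library was the lowest and the ischemic library the highest for each of these 4 genes.

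Set against each other, the injured libraries differed in 7 of the 10 members, which were at least 2-fold higher after ischemic than after physical injury (Fos, Fosb, Junb, Atf3, Egr1, Ier2 and Nr4a1), against 0.688% of 7267 genes. Their log2 ratios ran from 1.30 for Fosb to 2.32 for Atf3. Jun stood at 0.99 (0.95 to 1.02) and Jund at 0.59 (0.54 to 0.63). The physical injury library enters both comparisons, so their counts are not independent. Sex-linked genes, picked after their values were seen, also differed between the injured libraries. Xist stood at 720 CPM after physical and 317 CPM after ischemic injury, Eif2s3y at 14.7 and 43.1 CPM and Ddx3y at 33.2 and 70.1 CPM. Per the paper, each injured group pooled as many female as male cortices. The part of the sexes pooled in each library was not tested.

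**Figure D2:**
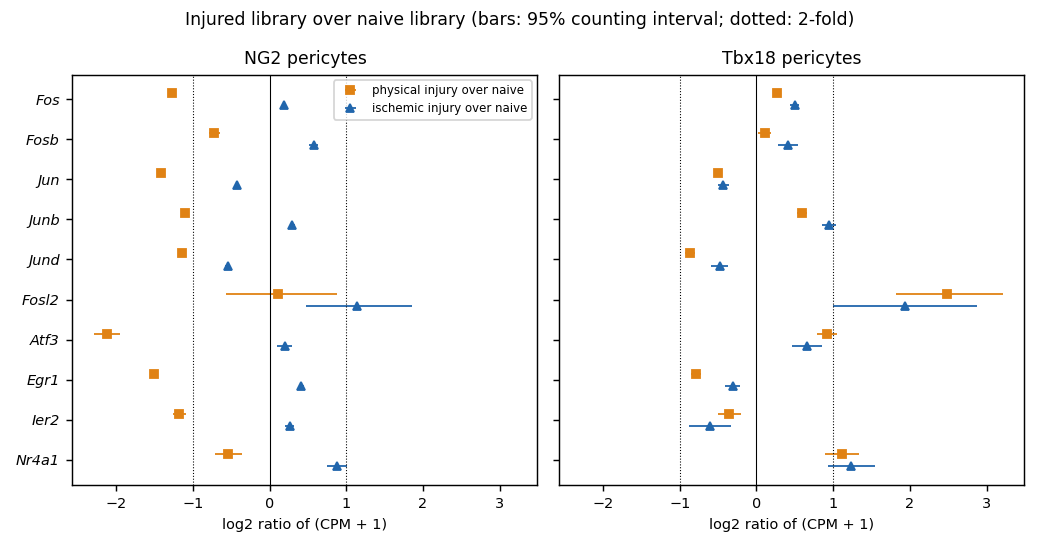
Log2 ratio of (CPM + 1) of each gene in pericytes of the injured libraries over the naive library, for the NG2 line and the Tbx18 line, with 95% counting intervals. In the NG2 line Atf3 stood at -2.12 after physical and 0.20 after ischemic injury, and in the Tbx18 line at 0.92 and 0.66.

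Other genes of the early response were counted from lists. Of 33 other immediate early and feedback genes, 24 could be tested after physical injury, of which 4 were at least 2-fold lower and 0 higher. These were Socs3 (149, 47.8 and 187 CPM), which restrains cytokine signalling, the Krüppel-like factors Klf2 (239, 80.4 and 209 CPM) and Klf4 (153, 65.5 and 196 CPM), and Dusp1 (644, 240.2 and 631 CPM), a phosphatase that switches off MAP kinases. Each was lowest in the physical injury library. Between ischemic and physical injury 10 of 26 were at least 2-fold higher and 0 lower. Of 15 other AP-1, EGR, NR4A and IER genes 6 could be tested after physical injury and 0 were called. Of 14 heat shock genes 1 was at least 2-fold lower, Hspa1b, which encodes an inducible chaperone (1025 and 450.3 CPM in naive and physical injury). Of 21 upstream kinases and transcription factors 18 could be tested and 0 were called.

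Clock genes moved in the same comparison and were picked after their values were seen. In pericytes the clock output gene Dbp stood at 378, 114 and 290.2 CPM and Nr1d1, which encodes a clock repressor, at 299.9, 130.5 and 193 CPM, while the clock activator gene Arntl stood at 15.8, 52.1 and 27.8 CPM. Their part in the result was not tested, and the hour of tissue collection is not given in the sources used here.

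The lower level after physical injury was seen within each pericyte cluster for most members. Nr4a1 was not lower in cluster 2, at 48.2 CPM in the naive and 55.4 CPM in the physical injury library (log2 ratio 0.20, -0.13 to 0.53). Fosl2, near the floor, was not lower in clusters 1 and 2. In cluster 0 the members took a median of 3.29%, 1.32% and 2.94% of a cell's UMIs, in cluster 1 0.578%, 0.215% and 0.309%, and in cluster 2 0.566%, 0.264% and 0.389%. Jun stood at 11069, 4676 and 8068 CPM in cluster 0 and at 3067, 1165 and 1497 CPM in clusters 1 and 2 together. The log2 ratios to naive after physical injury were -1.13, -1.60 and -0.91 for Fos in clusters 0, 1 and 2, and -1.38, -1.65 and -1.19 for Egr1. After ischemic injury Jun stood at -0.46, -1.42 and -0.83 on that scale. Thus the ischemic library lay nearer to naive in cluster 0 than in the other clusters for Jun, and in clusters 1 and 2 together the median log2 ratio of the members to naive was -0.0602 compared with 0.28 in the pooled class. Cluster 0 held 39.5%, 34.4% and 46.4% of the pericytes, so the pooled ratios also carry the mix of clusters. In clusters 1 and 2 together the ischemic log2 ratios to naive of Fos, Junb, Egr1 and Ier2 were -0.11, -0.0782, -0.0422 and -0.26. The 2 clusters differed in sign, with -0.48, -0.46, -0.37 and -0.63 in cluster 1 alone and 0.11, 0.27, 0.08 and 0.11 in cluster 2 alone. In cluster 2 the intervals of Egr1 (-0.03 to 0.19) and Ier2 (-0.08 to 0.29) held 0. The ischemic log2 ratios to naive in clusters 0, 1 and 2 were 0.49, -0.44 and 0.14 for Fosb and 0.90, -0.37 and 0.63 for Nr4a1. In cluster 0 alone the ischemic log2 ratio to naive of Atf3 was -0.0729.

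Cell by cell, the median share of UMIs from the 10 genes was 1.46%, 0.473% and 1.35% in NG2 pericytes. The share of cells above 2% was 39.6%, 9.22% and 38.2%. The naive and ischemic curves ran close together, and the curve of the physical injury library lay towards low values over its whole range.

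**Figure D3:**
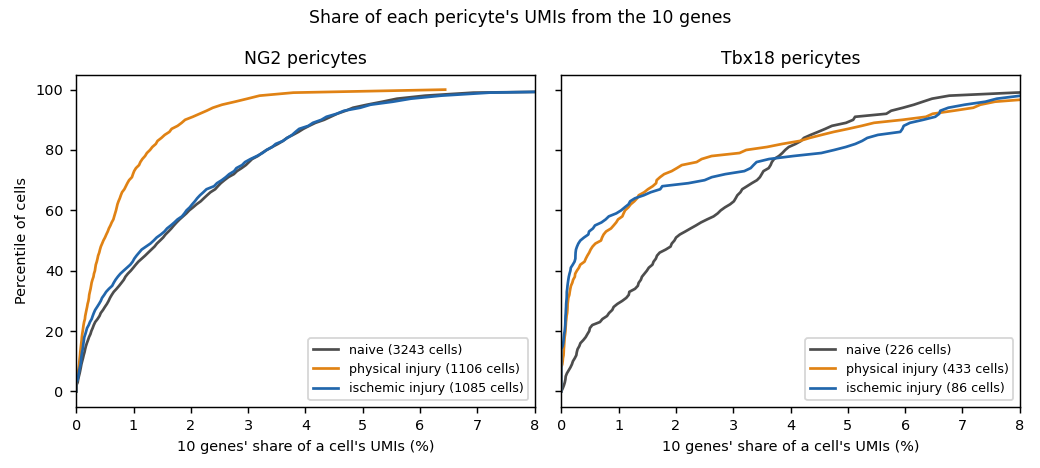
Percentile of cells (vertical axis) against the percent of a cell's UMIs from the 10 genes (horizontal axis, drawn to 8%), for NG2 pericytes (left) and Tbx18 pericytes (right). Median shares were 1.46%, 0.473% and 1.35% in the NG2 line and 1.97%, 0.693% and 0.332% in the Tbx18 line, in the order naive, physical injury, ischemic injury.

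At a matched depth of 1000 UMIs per cell, which left out 35, 20 and 56 shallower pericytes, 69.5%, 55.1% and 72.8% of NG2 pericytes had a Fos UMI. For Egr1 the shares were 52.4%, 30.7% and 58.6%, and for Atf3 12.3%, 4.42% and 16.9%. For each of them the physical injury share was the lowest. Jun was found in 79.1%, 64.1% and 72.3%, Junb in 48.4%, 35.0% and 58.0% and Nr4a1 in 7.79%, 6.08% and 12.2% of cells. Without thinning, 80.0%, 73.0% and 79.6% of pericytes had a Fos UMI. No class lacked Fos, so Vtn, a pericyte transcript, was used to look for RNA from other cells. It stood at 19134 CPM in naive pericytes and 196 CPM in naive mature oligodendrocytes. Fos stood at 5125 and 2842 CPM in the same cells, and 59.6%, 47.6% and 48.3% of mature oligodendrocytes had a Fos UMI at matched depth. A Vtn UMI was found in 42.7%, 22.1% and 23.0% of mature oligodendrocytes without thinning. Free RNA, doublets (droplets holding several cells) and low expression by these cells cannot be told apart in those shares. How much of their Fos was free RNA was not tested. Median depths without thinning were 3821, 4683.5 and 4202 UMIs in pericytes and 13252, 23779 and 29600.5 UMIs in mature oligodendrocytes.

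**Figure D4:**
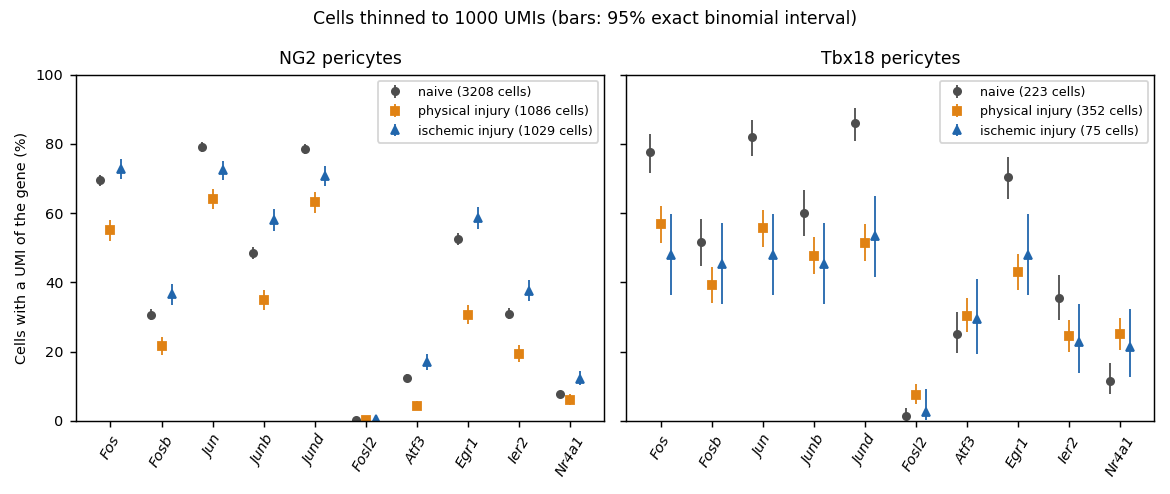
Percent of pericytes with at least 1 UMI of each gene after thinning every cell to 1000 UMIs, with 95% exact binomial intervals. Fos was found in 69.5%, 55.1% and 72.8% of NG2 pericytes and in 77.6%, 56.8% and 48.0% of Tbx18 pericytes, in the order naive, physical injury, ischemic injury.

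In NG2 smooth muscle cells (503, 242 and 277 cells) no member was called after either injury, against 0.529% and 0.621% of genes. Fos stood at 8472, 7413 and 8261 CPM, Egr1 at 2562, 2529 and 3135 CPM and Atf3 at 3193, 2044 and 2313 CPM. In NG2 endothelial cells (101, 404 and 453 cells) no member was called either, against 4.29% and 5.07% of genes. Fos stood at 7925, 5935 and 6153 CPM there, and Jund at 2845, 2506 and 1548 CPM, with a log2 ratio of -0.88 after ischemic injury. The log2 ratio of Fos between physical injury and naive was -1.27 in pericytes, -0.19 in smooth muscle cells and -0.42 in endothelial cells of the same libraries. The difference between classes was not tested.

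Mesenchymal-like NG2 cells (177, 81 and 240 cells) had 7 members at least 2-fold lower after physical injury, against 7.19% of genes, and 4 after ischemic injury, against 9.85%. Jun stood at 8829, 2224 and 2949 CPM, Fos at 10719, 3884 and 5485 CPM and Egr1 at 2186, 809.7 and 1996 CPM. Egr1 in the ischemic library lay near naive, while Jun did not. Median depth moved with the library, at 4026, 7733 and 8444 UMIs per cell, and its part in the result was not tested.

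In the oligodendrocyte lineage the libraries stood in another order. Mature oligodendrocytes (103, 294 and 592 cells) had 6 members at least 2-fold lower after ischemic injury than in the naive library, against 1.99% of genes, and none after physical injury, against 0.957%. Fos stood at 2842, 1651 and 1037 CPM and Egr1 at 433, 268 and 122 CPM, with the ischemic library lowest. OPCs (100, 301 and 294 cells) had Egr1 at 299, 537 and 617 CPM and Fos at 1503, 2414 and 2466 CPM, with the naive library lowest. Egr1 was the 1 member called higher there, after ischemic injury (log2 ratio 1.04, 0.82 to 1.28), against 4.79% of genes. Jund lay the other way in OPCs, at 1278, 987 and 684 CPM, and Jun stood at 2769, 2086 and 1994 CPM. Atf3 was near its detection limit there, at 3.52, 12.7 and 17.2 CPM, and stood at 58.8, 50.1 and 56.4 CPM in mature oligodendrocytes. Median depths were 4691.5, 12390 and 11764.5 UMIs in OPCs.

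RGPs and microglia were compared between the injured libraries, since fewer than 20 such cells were naive. RGPs (76 and 438 cells) were compared in summed counts. Fos, Fosb, Junb and Egr1 were at least 2-fold lower there after ischemic than after physical injury, against 3.97% of genes. Fos stood at 2086 and 988 CPM and Egr1 at 396 and 137 CPM there, with median depths of 12792 and 37572.5 UMIs. In microglia Jund was the 1 member called, at 746 and 285 CPM after physical and ischemic injury, against 4.74% of genes lower. Microglia stood out from the other glia by Atf3, at 1609 and 1195 CPM, and Junb, at 2452 and 1546 CPM, where RGPs had 55.7 and 40.1 CPM and 301 and 145 CPM. These levels describe clusters that were formed on expression.

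The same comparison in Tbx18 pericytes gave another picture in summed counts. In the median cell the physical injury library lay below naive in both lines. The ischemic library lay near naive in the median NG2 pericyte (1.46% naive, 1.35% ischemic) but not in the median Tbx18 pericyte. The members' median share of a cell's UMIs was 1.97%, 0.693% and 0.332%, and 49.1%, 26.1% and 31.4% of cells lay above 2%. The calls that follow rest on summed counts. No member was at least 2-fold lower after either injury, against 4.07% and 6.79% of genes, and Fosl2 and Nr4a1 were at least 2-fold higher after both, against 7.16% of genes after physical and 8.75% after ischemic injury. Fosl2 stood at 14.1, 83.5 and 56.8 CPM, so that it passed the minimum level through the injured libraries. Nr4a1 stood at 168, 364 and 397 CPM, with log2 ratios of 1.11 (0.89 to 1.33) and 1.24 (0.93 to 1.54). The median log2 ratio of the 10 members was 0.19 (0.13 to 0.25) after physical and 0.45 (0.36 to 0.55) after ischemic injury, where the brackets again hold medians of the members' bounds.

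Among the other members, Fos stood at 6380.3, 7690.0 and 9002 CPM and Junb at 2069, 3134 and 3999 CPM in Tbx18 pericytes, both with the naive library lowest in this cluster. After physical injury the log2 ratio of Fos to naive was 0.27, and it turned to -0.11 with equal weight per cell. Atf3 stood at 518, 982 and 820.2 CPM, with the physical injury library highest. Jun stood at 6942, 4886 and 5148 CPM, Jund at 3258, 1785 and 2338 CPM, Egr1 at 3418, 1973 and 2758 CPM and Ier2 at 573, 448 and 377 CPM. In these 4 genes the naive library was the highest, none by 2-fold.

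The cells of this class were not alike across libraries. Their median depth was 6547.5, 2540 and 3791.5 UMIs, pericyte markers summed to 24388, 14449.7 and 14984 CPM with 9 of 9 detected, smooth muscle markers to 827, 4270.1 and 1978 CPM, endothelial markers to 176, 1057 and 1391 CPM and mesenchymal-like pericyte markers to 346, 1668 and 2242 CPM. Their part in the results was not tested. In cells with a UMI of at least 4 pericyte markers, a choice made after seeing the data, Nr4a1 had log2 ratios of 0.99 and 1.35 after physical and ischemic injury and Fosl2 had 1.55 and 2.00. Cluster 4, which the study also counts as pericytes, had no pericyte marker among its 10 leading genes, which began with Slc4a10, Prg4 and Timp1. These were taken over all libraries together, where cluster 4 held 291303, 2731392 and 1302064 UMIs, so they describe mostly injured cells. Cluster 4 had 157, 349 and 143 cells with median depths of 1724, 6756 and 8461 UMIs, and the part of depth was not tested. When cluster 4 was added, the median log2 ratio of the members turned to -0.69 and -1.38. The log2 ratios of Fos turned to -0.63 and -1.35, those of Junb to -0.61 and -1.12 and those of Nr4a1 to -0.0662 and -0.91.

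The spread over cells was wide in the injured Tbx18 libraries. The median share of a cell's UMIs from the members was 1.97%, 0.693% and 0.332%, while the 95th percentile was 6.15%, 7.31% and 7.04%. The matched depth kept 223, 352 and 75 of the 226, 433 and 86 cells, so more of the injured cells were left out. Of the cells kept, 82.1%, 55.7% and 48.0% had a Jun UMI and 11.7%, 25.0% and 21.3% had an Nr4a1 UMI. Jun was thus found in fewer cells of the injured libraries and Nr4a1 in more. With equal weight per cell the median log2 ratio of the members was -0.0146 after physical and 0.0160 after ischemic injury.

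Of the other immediate early and feedback genes in Tbx18 pericytes, 16 of 29 tested were at least 2-fold higher and 1 lower after physical injury, and 12 of 28 higher and 1 lower after ischemic injury. Over all genes tested, 7.16% were higher and 4.07% lower after physical injury, and 8.75% and 6.79% after ischemic injury. Myc, a growth regulator, stood at 4.71, 50.5 and 90.8 CPM, and Id3, an inhibitor of basic helix-loop-helix factors, at 149, 1145 and 1129 CPM. The Nr4a1 relatives Nr4a2 (4.71, 121 and 39.7 CPM) and Nr4a3 (12.8, 94.3 and 79.5 CPM) were at least 2-fold higher in both injured libraries. Myc, Nr4a2 and Nr4a3 lay below 20 CPM in the naive library. They passed the minimum level only through the injured libraries, so they could be called higher but not lower. The counts and the shares of all genes in this paragraph rest on the same rule. Of 14 heat shock genes, 3 and 4 were at least 2-fold lower after physical and ischemic injury and none was higher, beside 4.07% and 6.79% of all genes lower. Hspa1b stood at 1589.7, 243 and 553 CPM.

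Cluster 0 of the Tbx18 table (159, 1788 and 1488 cells) is given by its number, since its 10 leading genes held 3 endothelial markers and 4 erythrocyte genes. Endothelial markers summed to 16461, 20396 and 19807 CPM and erythrocyte markers to 36.4, 4148 and 4148 CPM there, and the part of the latter in the result was not tested. Fos stood at 7173, 7523 and 7453 CPM and Jun at 7664, 7138 and 6168 CPM in this cluster. Fosl2 was the 1 member called there, at 121, 58.4 and 91.4 CPM, lower after physical injury, against 5.95% of genes. Tbx18 smooth muscle cells (63, 827 and 47 cells) had no member called after physical injury, against 11.7% of genes, and 8 at least 2-fold lower after ischemic injury, against 12.5%. Fos, at 9879, 8559 and 5521 CPM, and Ier2, at 771, 1161 and 591 CPM, were not among the 8. Median depth moved with the library there, at 7834, 10561 and 2831 UMIs, and its part in the result was not tested. In cluster 4, which no marker list named, 9 members were at least 2-fold lower after ischemic than after physical injury, against 9.48% of genes, with Fos at 2343 and 812 CPM.

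The last comparison set the naive libraries of the 2 lines side by side in the table that holds both. Clusters 0, 1, 2, 3, 5 and 8, for which pericyte was the best marker list, were pooled. The leading genes of cluster 1 included the haemoglobin genes Hba-a1, Hba-a2 and Hbb-bs and no pericyte marker, with erythrocyte markers at 677 CPM in the NG2 and 0 CPM in the Tbx18 library and pericyte markers at 37246 and 31468 CPM. Cluster 7 (244 NG2 and 27 Tbx18 cells) also had pericyte as its best list but no pericyte marker and 1 marker of another list among its 10 leading genes, had fibroblast markers at 699 and 2460.0 CPM, and was not pooled. The pooled clusters 3, 5 and 8 had no pericyte marker among their leading genes either. The mean level of pericyte markers, relative to the cluster highest in each, was 0.575 in cluster 5 and 0.723 in cluster 7. In the pool, Fosb (1276 against 566 CPM, Tbx18 against NG2) and Nr4a1 (203 against 99.2 CPM) were at least 2-fold higher in the Tbx18 library, against 3.02% of genes. Atf3 (498 against 256 CPM) and Egr1 (3065 against 1814 CPM) had log2 ratios of 0.95 (0.84 to 1.07) and 0.76 (0.71 to 0.80). Jun stood at 6488 against 6306 CPM and Ier2 at 534 against 579.8 CPM. Fosl2 stood at 13.1 against 3.24 CPM, under the minimum level. Without cluster 1, a choice made after seeing the data, Fosb and Nr4a1 had log2 ratios of 1.08 and 1.02 and Jun turned from 0.0411 to -0.0142.

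Cluster by cluster, the interval of the log2 ratio lay above 0 in 6 of 6 clusters for Fosb, Atf3 and Egr1, with medians of 1.32, 1.32 and 0.858. For Nr4a1 it lay above 0 in 4 clusters, for Jun above 0 in 3 and below 0 in 2, and for Ier2 in none on either side. The lowest Jun ratio, -0.888, was that of cluster 1. In cluster 7 the ratios of Fosb, Atf3 and Egr1 were 1.79, 1.08 and 1.12 and that of Jun was -0.12. Fosb stood at 3339.8 against 1741 CPM in smooth muscle cells and 2734 against 1108 CPM in endothelial cells of the same table. Egr1 stood at 4805 against 2780 CPM and 2482 against 1431 CPM there. Atf3 lay the other way in smooth muscle cells, at 3089 against 3540 CPM (log2 ratio -0.20, -0.28 to -0.11), and stood at 2675 against 1566 CPM in endothelial cells. The line, its animals and its preparation cannot be told apart.

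**Figure D5:**
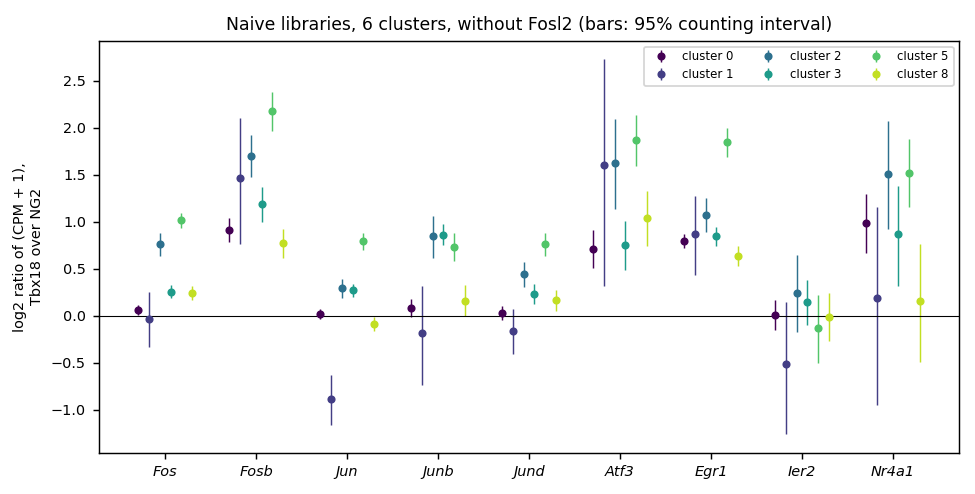
Log2 ratio of (CPM + 1) of the naive Tbx18 over the naive NG2 library for 9 genes in each of the 6 pooled clusters, with 95% counting intervals (Fosl2 is not drawn). Fosb, Atf3 and Egr1 lay above 0 in 6 of 6 clusters, while Jun ran from -0.888 to 0.791.

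The genes varied together from cell to cell. In naive NG2 pericytes thinned to 1000 UMIs (3208 cells) the Pearson correlation of Fos and Jun was 0.721. The median over pairs of members found in at least 20% of cells was 0.444 (21 pairs), 0.411 (15 pairs) and 0.533 (21 pairs). These cells share a library and clusters formed on the same genes, and the values are descriptions.

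Over 47 profiles of a cluster in a library, and among 9364 genes, those most like the mean of the 10 members were Dusp1 (Pearson correlation 0.929), Zfp36 (0.903), which encodes a protein that destabilises early response mRNAs, Ppp1r15a (0.890) and Btg2 (0.890). Klf2, Klf4, Sertad1, Gm26532, Socs3 and Rlim completed the first 10. Jun was most like Jund (0.920), Junb most like Zfp36 (0.944), and Fosl2 most like Ripk1 (0.929). The profiles share depth and cell class.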

How the data were processed

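Cells were sorted and captured with a 10x Genomics 3′ kit, v3, and, per the labels, the authors aligned reads to GRCm38 (mm10). The submitters' processing notes name Cell Ranger 7.0.0, but the study's methods give a range of versions, so the version used for each library is not known here. The deposited tables hold raw UMI counts per gene and cell, with cluster numbers and the percent of mitochondrial UMIs the authors computed per cell. All deposited cells were kept, and no doublet caller was run. The 10 members and the other lists were chosen with earlier results of these data known. UMI counts were summed per class and library and scaled to CPM. Intervals are exact Poisson, exact binomial (Clopper-Pearson) and, for ratios, conditional binomial at 95%, and cover counting error only. Shares used cells thinned to 1000 UMIs. Groups came from the labels, with 1 library each, so no test was run and a call is a fold of at least 2 with at least 20 CPM in the higher library. Named genes are the 10 members, up to 4 genes of each other list with the largest ratio, and the 10 genes most like the members' mean (at least 50 CPM in a profile). Clock, interferon and sex-linked genes outside this rule are said to be picked after their values were seen. The alternatives changed scaling, cell weights, cell filters, depth, pseudocount and the clusters of a class. Older symbols were matched for 4 genes. Promoters came from RefSeq GRCm38.p6. The work used Python 3.11.15, numpy 2.4.6, pandas 2.3.3, scipy 1.17.1 and matplotlib 3.10.9, and R 4.3.3 with edgeR 4.0.16 for TMM factors only. The code was tested on simulated data.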

Additional observations from a re-analysis of the deposited data

Results flagged for a closer look

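In pericytes Junb, Atf3 and Nr4a1 had log2 ratios of opposite sign in the 2 lines after physical injury, each at least 0.5 in size, and the difference was not tested. Junb stood at -1.11 in the NG2 line and 0.60 in the Tbx18 line, Atf3 at -2.12 and 0.92, and Nr4a1 at -0.54 and 1.11. In the Tbx18 class, smooth muscle markers summed to 827 and 4270 CPM in the naive and physical injury libraries. Pericyte markers summed to 24388 and 14450 CPM there, and the members' median share of a cell's UMIs was 1.97% and 0.693%. The part of these differences was not tested. With cluster 4 added to the Tbx18 pericytes, the Tbx18 values were -0.61, -0.0982 and -0.0662, so that the signs were no longer opposite. Cluster 4 had no pericyte marker among its leading genes, which were taken over all libraries together and describe mostly injured cells. In smooth muscle cells after ischemic injury Fosl2 stood at 0.58 in the NG2 line and -1.34 in the Tbx18 line, which was not tested either. The 2 lines have 1 library per condition each, so the line and the library cannot be told apart.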

How the results depend on the processing

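No paired analysis was possible because each group had 1 library, and for the same reason no replicate could be left out. Values below are the median log2 ratio of the 10 members. In NG2 pericytes it was -1.16 after physical injury, with -1.01 in cluster 0 alone and -1.08 in clusters 1 and 2, and 0.28 after ischemic injury, with 0.20 and -0.0602. In Tbx18 pericytes after physical injury it was 0.19, but -0.0146 with equal weight per cell, 0.30 with the study's cell filters applied again, 0.29 in cells with at least 2000 UMIs, 0.26 without the 5% of cells with the most UMIs and -0.69 with cluster 4 added. After ischemic injury it was 0.45, and 0.0160, 0.56, 0.34 and -1.38 with equal weight, with the filters, without the deepest cells and with cluster 4, and 0.58 in cells with at least 4 pericyte markers, a choice made after seeing the data. With cluster 4 added, Nr4a1 turned to -0.0662 after physical and -0.91 after ischemic injury, and Fosl2 to -0.37 after ischemic injury. Between the naive lines it was 0.51, and 0.42 with TMM factors, 0.46 with equal weight, 0.45 without the deepest cells and, chosen after seeing the data, 0.44 without cluster 1. The cause was not tested. Of 500 values of single members under the alternatives, 478 kept their sign and 22 did not. Without the minimum level, 196 in place of 33 genes were at least 2-fold apart in NG2 pericytes after physical injury, 399 in place of 41 after ischemic injury, 3651 in place of 872 and 4964 in place of 1220 in Tbx18 pericytes, and 1995 in place of 329 between the naive lines. Of 240 shares of cells at another depth, 209 lay outside the interval at 1000 UMIs. The naive Tbx18 library of 686 cells and classes of 47 to 86 cells limit what the Tbx18 line can show.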

Other observations

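Genes outside the early response, picked after their values were seen, also stood apart in NG2 pericytes. The interferon-stimulated gene Isg15 stood at 15.8 CPM in the naive and 71.8 CPM in the ischemic library and at 43.1 CPM after physical injury. Rtp4 (6.64 and 23.5 CPM, naive and ischemic) and Ifit3 (11.4 and 37.1 CPM), of the same response, had log2 ratios of 1.68 and 1.62. Each of these genes lay below 20 CPM in the naive library and passed the minimum level only through injured libraries.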
